A study of Mus musculus with 6 samples.

Results

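Signals of 7 genes that guide the migration of young neurons were described in cells of the Atoh1 lineage: Cxcl12, Cxcr4 and Ackr3 of the chemokine system, and Reln, Vldlr, Lrp8 and Dab1 of the reelin system. All probe sets annotated with exactly 1 of these gene symbols were taken, which gave 21 of the 45101 probe sets on the array. The cells came from the rhombomere 1 and isthmus region of Swiss Webster mouse embryos, which forms the cerebellum and part of the brainstem, and were sorted at E14.5 for EGFP by flow cytometry. Both groups carried Atoh1-CreER, a recombinase made in Atoh1-expressing cells and active only under tamoxifen, and the EGFP reporter RCE. The dam received tamoxifen (4 mg per 35 g) by gavage at E13.5 for the E13.5-labelled group or at E10.5 for the E10.5-labelled group. Each group had 3 samples, hybridised singly to Affymetrix 430_2 arrays, and precision is limited by having only these 6 arrays. The interval between labelling and collection differed along with the day of labelling, and the effects of the 2 cannot be told apart. Separate litters are not stated in the labels. The p-values therefore reflect the spread among these samples alone, and part of that spread may be technical.

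CXCL12 is a secreted chemokine that the meninges over the developing cerebellum release. CXCR4 is the G protein-coupled receptor through which it attracts and retains cells such as granule cell precursors near the pial surface, and ACKR3 (formerly CXCR7) binds and removes CXCL12. Reelin, encoded by Reln, is a large extracellular glycoprotein that granule cell precursors and neurons of the cerebellar nuclei secrete. It binds the lipoprotein receptors VLDLR and ApoER2 (encoded by Lrp8) on migrating neurons, among them Purkinje cells, and leads to phosphorylation of the adaptor DAB1 on their cytoplasmic side.

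The genes lie on 5 chromosomes in GRCm38.p6: Cxcr4 at chr1:128588199-128592299, Ackr3 at chr1:90203980-90215724, Cxcl12 at chr6:117168535-117181368, Reln at chr5:21884454-22344705, Vldlr at chr19:27216480-27254231, Lrp8 at chr4:107802200-107876840 and Dab1 at chr4:103619500-104744844. The 250 bases before the RefSeq start (RefSeq, GRCm38.p6) are shown for both chemokine receptors, for Reln and for the outermost start of Dab1, to set the promoters of Cxcr4 and Reln, higher in E13.5-labelled cells, and of Ackr3, which did not pass the test, beside one of a gene lower there. Capitals mark TATAAA on the gene's strand, a motif chosen after the sequences had been read.
Cxcr4, chr1:128592300-128592549, minus strand: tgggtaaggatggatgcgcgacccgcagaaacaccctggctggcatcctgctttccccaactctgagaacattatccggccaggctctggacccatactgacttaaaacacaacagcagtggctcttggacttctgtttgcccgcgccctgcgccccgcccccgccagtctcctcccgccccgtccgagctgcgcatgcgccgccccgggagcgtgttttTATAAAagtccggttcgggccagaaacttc
Ackr3, chr1:90203730-90203979, plus strand: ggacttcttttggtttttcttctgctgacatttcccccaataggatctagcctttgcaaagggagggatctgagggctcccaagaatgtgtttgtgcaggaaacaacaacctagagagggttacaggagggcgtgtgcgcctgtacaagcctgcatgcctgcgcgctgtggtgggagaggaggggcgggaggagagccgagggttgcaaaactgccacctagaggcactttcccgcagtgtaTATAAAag
Reln, chr5:22344706-22344955, minus strand: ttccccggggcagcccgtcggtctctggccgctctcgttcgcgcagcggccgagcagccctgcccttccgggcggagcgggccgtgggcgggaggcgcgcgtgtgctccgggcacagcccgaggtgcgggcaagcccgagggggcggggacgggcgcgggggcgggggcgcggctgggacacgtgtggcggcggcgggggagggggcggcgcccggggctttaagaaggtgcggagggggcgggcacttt
Dab1, chr4:103619250-103619499, plus strand: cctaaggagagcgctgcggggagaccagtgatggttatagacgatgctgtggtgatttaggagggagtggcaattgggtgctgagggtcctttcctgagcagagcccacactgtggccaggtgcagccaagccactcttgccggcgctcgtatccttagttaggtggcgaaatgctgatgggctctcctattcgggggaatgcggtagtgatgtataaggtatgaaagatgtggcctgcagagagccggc

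TATAAA on the gene's strand began 30 bases before the start in Cxcr4 and 8 bases before it in Ackr3, and was absent from the other 9 starts listed for the 7 genes. It was present in 7.59% of 32851 promoter windows of the same length, and in 12.4% on either strand. The E-box hexamers CAGCTG and CAGATG (both strands), forms of the sequence that basic helix-loop-helix factors such as Atoh1 bind, were found in 3 of the 11 windows, 1 of Vldlr and 2 of Lrp8, and in 25.5% of all windows. The Reln window was 80.0% G or C, the Cxcr4 window 61.2%, the printed Dab1 window 56.4% and the Ackr3 window 54.0%, while the other Dab1 start had 78.0%, with a median of 52.4% over all windows. These matches are descriptions of the letters in these windows.

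The arrays were compared as deposited, with a few differences between them. Median signals ran from 97.5 to 111 units. Rank correlations (Spearman, every probe set) lay at 0.938 to 0.945 within the E13.5-labelled group, 0.874 to 0.893 within the E10.5-labelled group and 0.845 to 0.886 across them. For Actb, the 3′ control probe set divided by the 5′ one, which reflects RNA integrity, gave 16.1, 15.0 and 12.9 in E13.5-labelled arrays against 17.4, 19.4 and 26.2 in E10.5-labelled arrays, so it did not overlap. The same ratio for Gapdh did overlap, at 12.1, 9.47 and 11.1 against 10.6, 12.5 and 13.2. Both ratios were 9.47 or more in every array, so the 3′ signal far exceeded the 5′ signal throughout. The part of RNA integrity in the results below was not tested. The Y-linked gene Eif2s3y read 14.1 units in E13.5-labelled replicate 3 and at least 826 units in the other 5 arrays, and Xist, made only in females, read 166 units in E10.5-labelled replicate 3 and at least 8140 units in the other 5, so the mix of sexes differed between samples. Of 7 granule cell precursor markers tested 6 were higher and none lower in E13.5-labelled cells (limma; none lower at an unadjusted p under 0.05 either), Atoh1 among them, which the labelling itself selects. Of 6 tested markers of rhombic lip-derived nuclei 5 were lower and none higher, at either level of p. The sums of these lists were 68900 to 75100 and 12000 to 14600 units in E13.5-labelled arrays against 24100 to 31400 and 43600 to 56300 units in E10.5-labelled arrays. Of 6 tested markers of ventricular glia 3 were lower and 1 higher, and of 4 of the oligodendrocyte lineage 2 were lower and 1 higher. One of the lower glial markers, Aldh1l1, was above the median in E10.5-labelled arrays alone, and its call ended with signals raised to the array median (1.67-fold lower, limma adjusted p = 0.0826). Their summed signals were 4810 to 7280 and 864 to 1110 units in E13.5-labelled arrays against 10300 to 11600 and 2710 to 3140 units in E10.5-labelled arrays. Of 5 tested endothelial and pericyte markers none passed in limma or at an unadjusted p under 0.05, and 1 of 2 microglial markers, Csf1r, was lower. The 1 tested erythroid gene, Hbb-y, did not pass in limma or at an unadjusted p under 0.05. Its E10.5-labelled signals were 13.01, 4.109 and 4657 units, so replicate 3 stood far apart. The E13.5-labelled signals were 233.0, 326.4 and 258.2 units. The sums of these 3 lists were 433 to 2280, 271 to 491 and 304 to 418 units in E13.5-labelled arrays against 803 to 3410, 545 to 1480 and 116 to 4750 units in E10.5-labelled arrays. Beside these marker counts, 13.9% of all 11071 genes tested were higher and 16.2% lower in E13.5-labelled cells. The part of such cells in the results below was not tested.

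Signals moved in opposite directions in the reelin system. The ligand Reln was higher in E13.5-labelled cells, while both receptors and the adaptor Dab1 were lower. The call of the brighter Reln probe set, 1449465_at, ended when any 1 E13.5-labelled array was left out. The chemokine receptor Cxcr4 was 6.55-fold higher in E13.5-labelled cells, and no probe set of its ligand Cxcl12 passed the test. Testing required a signal over the median of the array on 3 or more of the 6 arrays, and a probe set passed if its Benjamini-Hochberg adjusted p from limma, over all probe sets tested, was under 0.05. Of the 21 probe sets 16 were tested, and 13 of these passed, 3 higher and 10 lower in E13.5-labelled cells, which together stand for 5 genes. One of the 3 higher, Reln 1458020_at, was above the median in E13.5-labelled arrays alone. Over the whole array 25.9% of 23491 tested probe sets passed, 12.5% higher and 13.4% lower. Probe sets of 1 gene measure the same transcripts and are not independent of each other. In 14 of the 16 tested probe sets the groups did not overlap, as was the case in 46.9% of all tested probe sets. The median log2 difference, E13.5-labelled minus E10.5-labelled, was -1.85 over the 16 and 0.09 over all tested probe sets. In sorted bulk RNA, fewer cells that express a gene and less RNA per cell cannot be told apart.

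**Figure D1:**
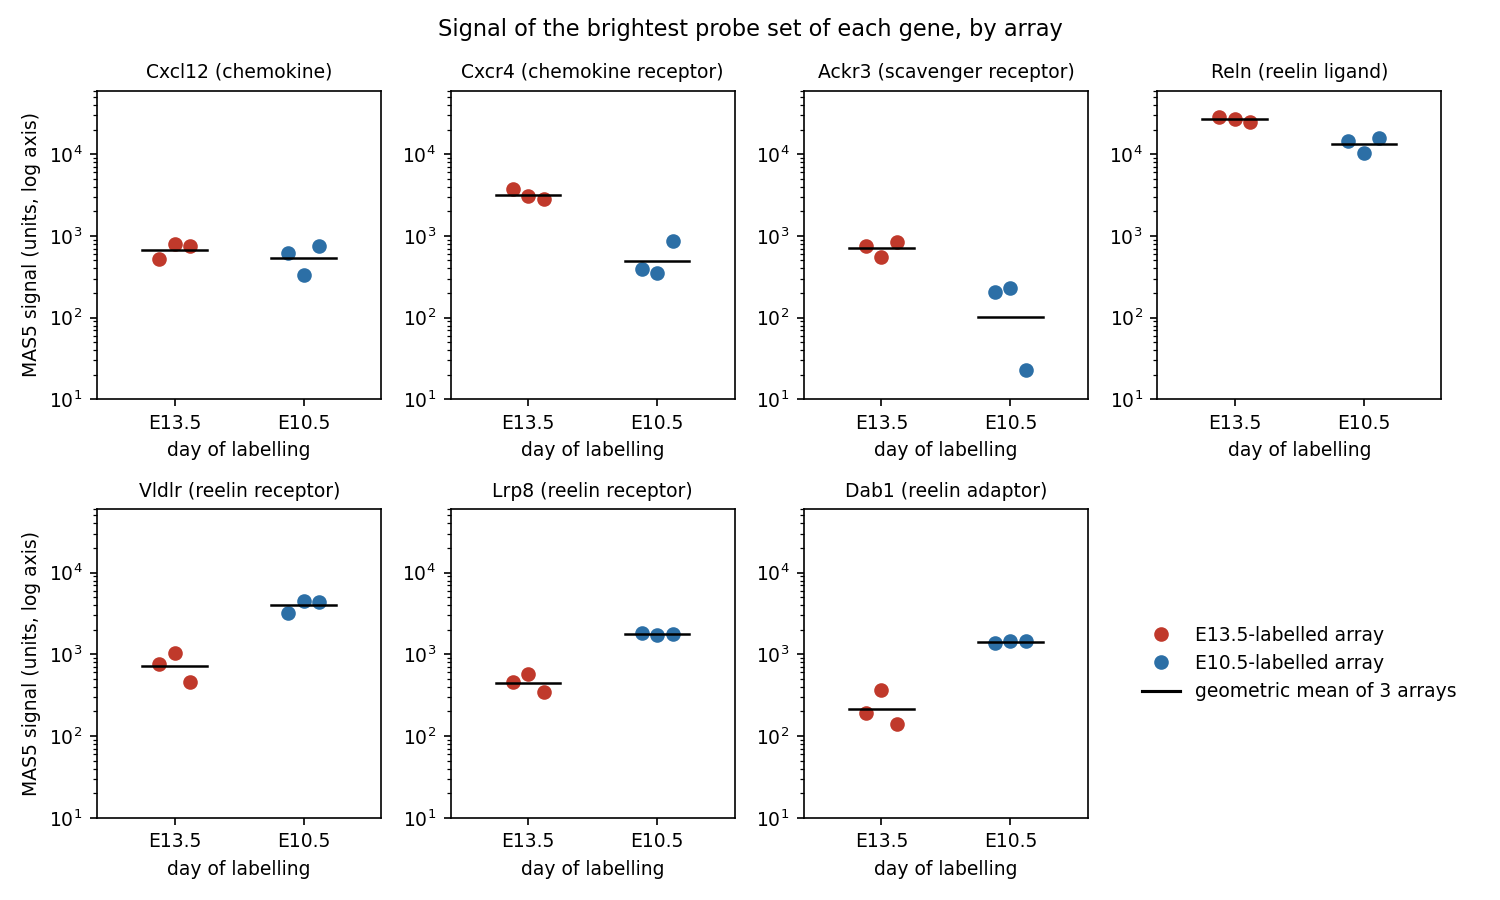
MAS5 signal (log axis) of the brightest probe set of each gene in each array. Points are single arrays, E13.5-labelled left and E10.5-labelled right, and the line is the geometric mean of 3 arrays. Cxcr4, Ackr3 and Reln lie higher in all E13.5-labelled arrays, Vldlr, Lrp8 and Dab1 lower in all of them, and the Cxcl12 groups overlap.

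Cxcl12 had 3 probe sets. The brightest, 1448823_at, had signals of 522.2, 786.9 and 752.2 units in E13.5-labelled arrays against 621.1, 333.3 and 747.3 units in E10.5-labelled arrays. The groups overlapped, and the log2 difference was 0.33 ± 0.36 (SE, n = 3 in each; limma adjusted p = 0.528), with a 95% interval from -0.53 to 1.19. The dimmer 1417574_at stood at 30.34, 219.1 and 134.6 units against 81.48, 174.7 and 269.3 units and did not pass either (log2 difference -0.70 ± 0.81, limma adjusted p = 0.561). Its 95% interval ran from -2.66 to 1.26, which spans sizeable differences in both directions. The remaining 1439084_at lay at or below 64.41 units in every array, under all 6 array medians, and was not tested. Meningeal cells are a known source of Cxcl12. Of 12 meningeal markers 6 never exceeded an array median, 4 were tested, and 1, Crabp2, was higher and none lower in E13.5-labelled cells (limma; none lower at an unadjusted p under 0.05). Crabp2 was above the median in E13.5-labelled arrays alone, and with signals raised to the array median its call ended (1.41-fold higher, limma adjusted p = 0.0831). The summed signal of the 12 markers was 654 to 1110 units in E13.5-labelled and 727 to 2580 units in E10.5-labelled arrays.

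Cxcr4 was measured by 1 probe set, 1448710_at. Its signals were 3703, 3112 and 2848 units in E13.5-labelled arrays against 390.7, 348.0 and 859.2 units in E10.5-labelled arrays. Every E13.5-labelled array was above every E10.5-labelled one, and the spread within the groups was small beside the gap. The means were 3221 ± 438 and 533 ± 284 units (SD, n = 3 in each), a log2 difference of 2.71 ± 0.37 (SE; limma adjusted p = 0.00488) that exceeded 97.9% of all tested differences. E10.5-labelled replicate 3 was the highest of its group, and the difference was 3.12 without it (limma adjusted p = 0.00497).

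Ackr3 did not pass the test although its groups did not overlap. Its single probe set, 1417625_s_at, read 757.8, 549.7 and 837.0 units in E13.5-labelled arrays against 205.1, 227.6 and 23.07 units in E10.5-labelled arrays. The 1 low value, in E10.5-labelled replicate 3, lay below that array's median and widened the spread on the log2 scale. The log2 difference was 2.78 ± 0.89 (SE, n = 3 in each; limma adjusted p = 0.0648), with a 95% interval from 0.63 to 4.93. Without E10.5-labelled replicate 3 it was 1.70 and passed (limma adjusted p = 0.0119). With each signal floored at the median of its array, the fold was 4.07 and passed (limma adjusted p = 0.00265).

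Reln was higher in E13.5-labelled cells with both of its probe sets. The brighter probe set, 1449465_at, had signals of 28660, 26570 and 24890 units in E13.5-labelled arrays against 14560, 10430 and 15900 units in E10.5-labelled arrays. All E13.5-labelled arrays were higher, by 1.99-fold on average (log2 difference 0.99 ± 0.22, SE, n = 3 in each; limma adjusted p = 0.0223). This call ended when E13.5-labelled replicate 1, 2 or 3 was left out (limma adjusted p = 0.0843, 0.0779 and 0.0730), while the difference stayed between 0.94 and 1.04. A separate probe set, 1458020_at, stood at 490.6, 272.1 and 656.2 units against 2.555, 15.66 and 2.727 units. All 3 E10.5-labelled values lay far below their arrays' medians, and the fitted log2 difference of 6.54 ± 0.76 (SE; limma adjusted p = 0.00299) rests on those dim signals. It was 7.39 without E10.5-labelled replicate 2 (limma adjusted p = 0.00347) and did not pass with both arrays numbered 3 left out (5.85, limma adjusted p = 0.0501). This probe set was above the median in E13.5-labelled arrays alone, and it met the requirement for testing only through them. With signals raised to the array median its fold was 4.15. Every E10.5-labelled value was then set by the floor, so the spread of that group was not measured. The measured size for Reln is therefore the 1.99-fold of 1449465_at, and the 4.15-fold of 1458020_at depends on where the floor was set. The pass of 1458020_at does not add separate support for the direction.

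Vldlr had 6 probe sets, of which 4 were tested, and all 4 were lower in E13.5-labelled cells. The brightest, 1434465_x_at, read 765.0, 1029 and 465.3 units in E13.5-labelled arrays against 3203, 4544 and 4314 units in E10.5-labelled arrays, 5.56-fold lower (log2 difference -2.47 ± 0.33, SE, n = 3 in each; limma adjusted p = 0.00455). Its name ends in x, which in Affymetrix naming marks probes that can also match other transcripts. The 3 tested probe sets without that mark were 7.76-fold to 9.68-fold lower. For 1435893_at the signals were 98.68, 156.5 and 96.00 units against 1014, 766.5 and 1731 units, with no overlap (limma adjusted p = 0.00266). The untested 1442169_at was lower in all 3 E13.5-labelled arrays, at most 61.44 units against at least 87.58 units, and 1451156_s_at stayed at or below 48.41 units in every array.

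Lrp8, the other reelin receptor gene, was also lower in E13.5-labelled cells. Its brightest probe set, 1442347_at, read 465.0, 579.9 and 343.1 units in E13.5-labelled arrays against 1836, 1703 and 1790 units in E10.5-labelled arrays. The E10.5-labelled values lay close together, and the groups were 3.93-fold apart (log2 difference -1.97 ± 0.24, SE, n = 3 in each; limma adjusted p = 0.00320). The dimmer 1440882_at was at 267.5, 365.4 and 188.1 units against 539.1, 487.3 and 551.4 units, 1.99-fold lower (limma adjusted p = 0.0430). That call ended when any 1 array other than E13.5-labelled replicate 2 was left out, with limma adjusted p from 0.0650 to 0.120. The third, 1421459_a_at, read 79.06, 32.95 and 55.66 units against 126.5, 2.897 and 48.77 units. Its groups overlapped, and it was too dim to test. Its log2 difference was 1.01, opposite in sign to those of the tested Lrp8 probe sets. Whether Lrp8 differed less than Vldlr was not tested.

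Dab1 had 5 probe sets, and all 4 that were tested were lower in E13.5-labelled cells, by 3.29-fold to 10.75-fold. The largest, for 1427308_at, had a log2 difference of -3.43 ± 0.57, and -2.79 without E13.5-labelled replicate 1 (limma adjusted p = 0.0116). With signals raised to the array median its fold was 8.19. The brightest, 1435578_s_at, read 190.0, 362.4 and 140.7 units in E13.5-labelled arrays against 1381, 1452 and 1448 units in E10.5-labelled arrays. The lowest E10.5-labelled array thus stood well above the highest E13.5-labelled one, 6.69-fold apart on average (log2 difference -2.74 ± 0.36, SE, n = 3 in each; limma adjusted p = 0.00411). For 1435577_at the signals were 57.92, 114.2 and 73.24 units against 575.7, 746.3 and 922.6 units (limma adjusted p = 0.00204). Of these E13.5-labelled values only 1 lay above its array's median, and with signals raised to that median the 9.35-fold difference became 7.09-fold. The call of 1427307_a_at, at 141 ± 63.1 against 435 ± 41.2 units (SD, n = 3), ended without E13.5-labelled replicate 1 (limma adjusted p = 0.0611). The untested 1421100_a_at had overlapping groups, with at most 52.72 units against 277.4, 38.61 and 168.2 units.

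**Figure D2:**
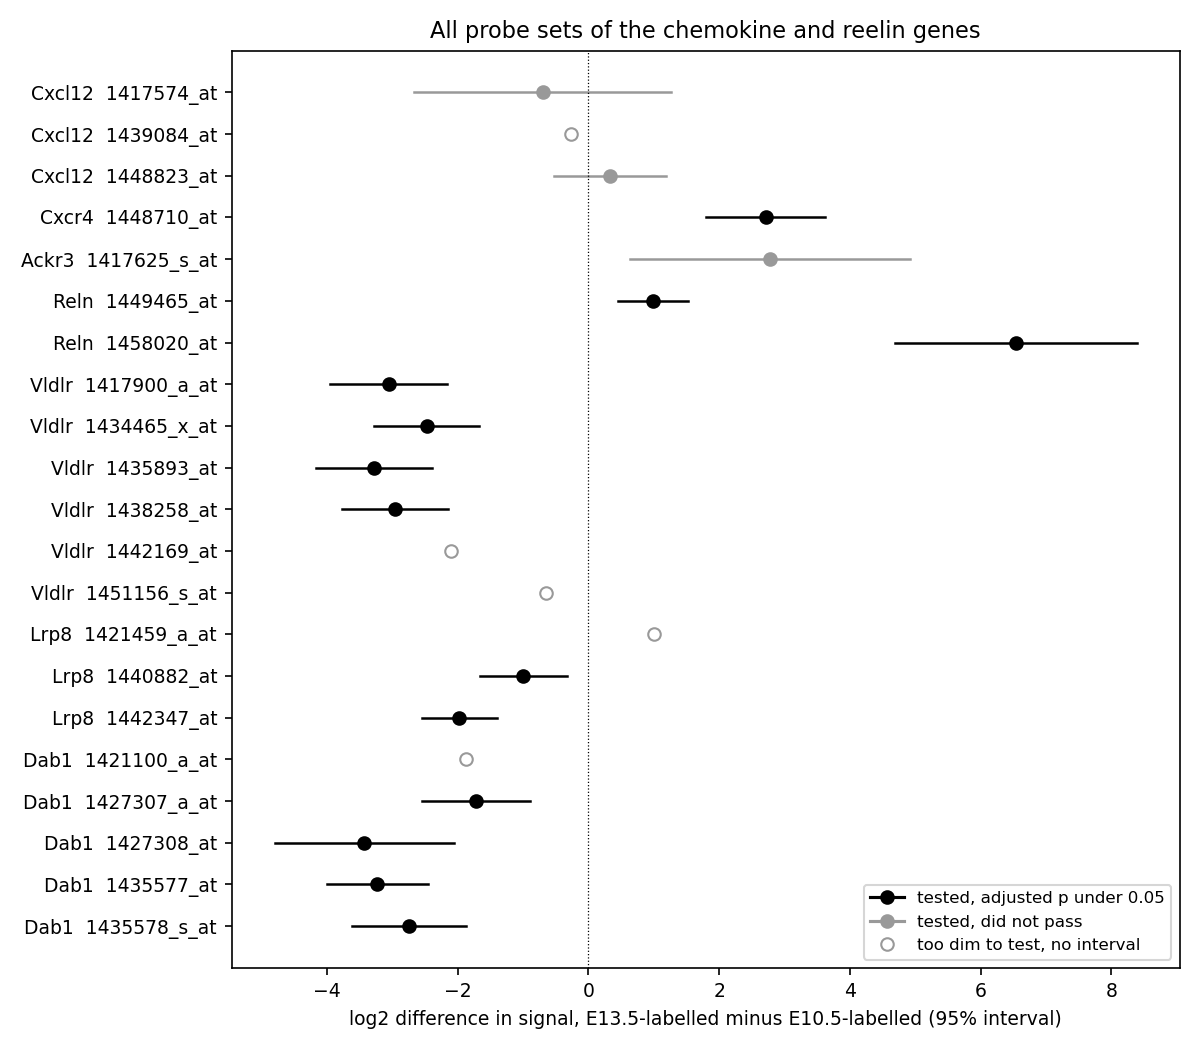
Log2 difference in signal, E13.5-labelled minus E10.5-labelled, for all 21 probe sets, with limma's 95% interval for the 16 tested. Black points passed an adjusted p of 0.05, grey points did not, and open points were too dim to test. All tested probe sets of Vldlr, Lrp8 and Dab1 lie left of 0, and those of Reln and Cxcr4 right of it.

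Purkinje cells and other GABAergic neurons are known to use these reelin receptors and Dab1, and a list of their markers was read. Of 4 tested markers 3 were lower in E13.5-labelled cells and none was higher (limma; none higher at an unadjusted p under 0.05). The other tested marker, Slc32a1, had overlapping groups and did not pass (limma adjusted p = 0.195). Calb1, a calcium buffer of Purkinje and many other neurons, read 150.1, 134.3 and 88.47 units in E13.5-labelled arrays against 1756, 1368 and 836.0 units in E10.5-labelled arrays. Gad1 and Gad2, the enzymes of GABA synthesis, were 2.63-fold and 3.23-fold lower (limma adjusted p = 0.0486 and 0.0166). The summed signal of the 7 matched markers was 472 to 777 units in E13.5-labelled and 1880 to 3380 units in E10.5-labelled arrays. Pcp2, a defining Purkinje marker, averaged 77.0 and 72.0 units, and Ptf1a, the determinant of cerebellar GABAergic neurons, averaged 57.7 and 107 units. Both genes were too dim to test. The part of such cells in the receptor and Dab1 signals was not tested.

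**Figure D3:**
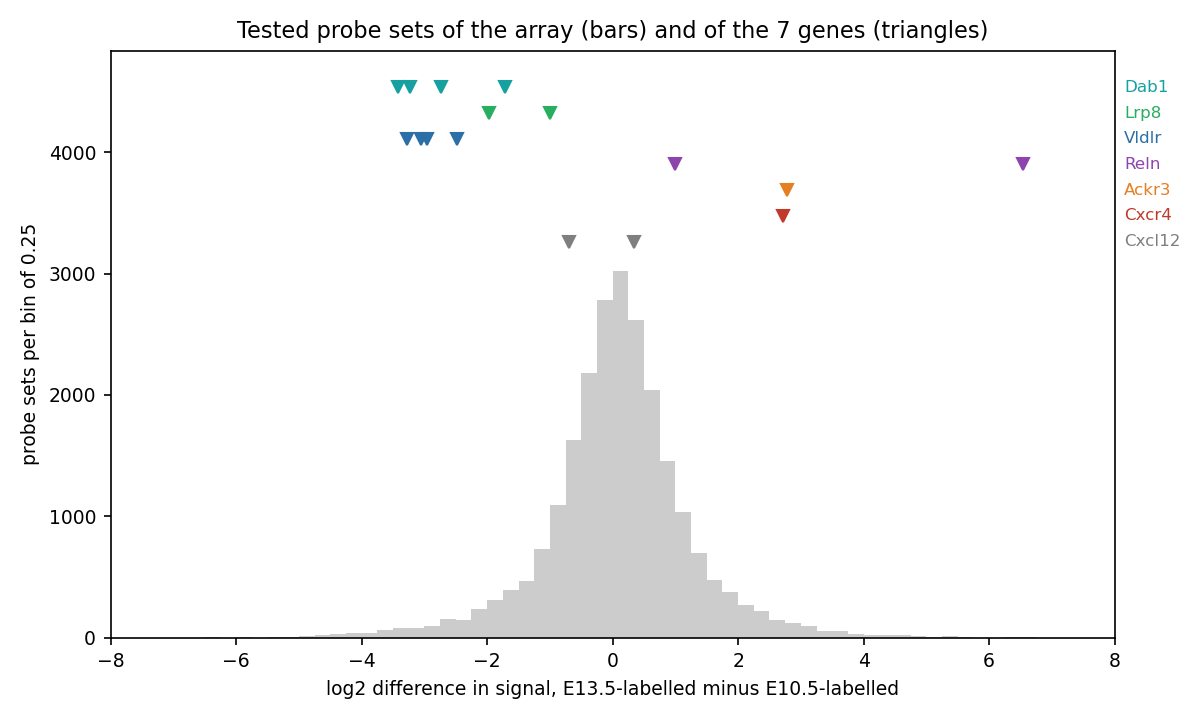
Distribution of the log2 difference, E13.5-labelled minus E10.5-labelled, over all 23491 tested probe sets in bins of 0.25 (bars), with the 16 tested probe sets of the 7 genes above it (triangles, 1 row per gene). Dab1, Vldlr and Lrp8 sit in the left tail, Cxcr4, Ackr3 and Reln to the right and Cxcl12 near the middle.

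Of the brightest probe set of each gene, Dab1 lay at the 2.18th percentile of all tested differences, Vldlr at 2.87, Lrp8 at 4.61, Cxcl12 at 62.1, Reln at 84.0 and Ackr3 at 98.0. Genes with the most similar pattern were sought among 10646 other genes, by the root mean square distance over the 6 arrays between log2 signals centred on each probe set's mean. This is a description of likeness over 6 arrays from 2 groups. Nearest to Cxcr4 were Mad2l1, Col18a1 and Cep55, at distances of 0.101, 0.168 and 0.180 against a median of 1.45 over all genes. Mad2l1 averaged 4256 ± 208 units in E13.5-labelled and 688 ± 352 units in E10.5-labelled arrays (SD, n = 3 in each). Nearest to Ackr3 were Ddx31, N4bp2l2 and Nuf2 at 0.239 to 0.325, and nearest to Reln were Ipo11, Fn1 and Scrn1 at 0.065 to 0.081. Vldlr was nearest to Iqsec3, Asic2 and Arhgef15 (0.158 to 0.176), Lrp8 to Galnt9, Dennd6b and Adam11 (0.065 to 0.103), and Dab1 to Sorl1, Atp1b1 and Unc13c (0.184 to 0.212). N4bp2l2 was above the median in E13.5-labelled arrays alone, and Asic2, Arhgef15 and Galnt9 in E10.5-labelled arrays alone. The likeness of these genes rests in part on dim signals. Cxcl12 lay nearest to Tmem35b, Msrb1 and Ints1 at 0.062 to 0.092, none of which passed the test.

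Other genes of both pathways were read from 4 lists, with the brightest single-gene probe set for each gene. Of 74 tested genes 27 passed, 5 higher and 22 lower in E13.5-labelled cells, or 36.5%, beside 30.1% of all 11071 genes tested (13.9% higher, 16.2% lower), whose median log2 difference was 0.03. Leaving out single arrays gave 14 to 25 passing genes, with 16, 17 and 14 without E13.5-labelled replicates 1, 2 and 3.

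Inside the cell, DAB1 phosphorylation by SRC-family kinases recruits CRK adaptors and PI3 kinase and feeds into the microtubule machinery of migration. Of 29 tested genes of this branch 6 were lower in E13.5-labelled cells, 1 was higher and 22 did not pass, while 30.1% of all genes tested passed. The median log2 difference of the branch was -0.19. Pik3r1, the regulatory subunit of PI3 kinase, averaged 363 ± 179 units in E13.5-labelled and 2285 ± 553 units in E10.5-labelled arrays (SD, n = 3), 6.62-fold lower (limma adjusted p = 0.00520). Cdk5r2 and Cdk5r1, activators of the kinase CDK5, were 3.93-fold and 2.71-fold lower, and Pik3cb, a catalytic PI3 kinase subunit, 3.14-fold lower. Nde1, a partner of the dynein regulator LIS1 that also acts in dividing progenitors, was higher at 1542, 1762 and 1669 units against 326.2, 19.68 and 182.7 units (limma adjusted p = 0.0327). Its log2 difference of 3.97 became 4.79 without E10.5-labelled replicate 1 and 2.76 without replicate 2. Of the SRC-family kinases, Fyn was lower, at 2476 ± 262 units in E13.5-labelled against 4201 ± 489 units in E10.5-labelled arrays (SD, n = 3; 1.70-fold, limma adjusted p = 0.0305). Yes1 of the same family averaged 623 units in E13.5-labelled and 380.3 units in E10.5-labelled arrays and did not pass (limma adjusted p = 0.106). Src and the adaptors Crk and Crkl did not pass either, at 337, 4015 and 2728 units in E13.5-labelled against 488, 3414 and 2569 units in E10.5-labelled arrays. Without E13.5-labelled replicate 1 or 3 only 2 genes of this branch passed, without replicate 2 only 4, and likewise 4 without E10.5-labelled replicate 3. The calls of Nde1, Cdk5r2, Pik3cb, Cdk5r1 and Fyn each ended when 1 of several arrays was left out, with limma adjusted p from 0.0506 to 0.110.

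Among surface partners of reelin signalling and enzymes that process it, 7 of 17 tested genes were lower in E13.5-labelled cells and none was higher (limma; 2 were higher at an unadjusted p under 0.05). Over all genes tested 16.2% were lower and 13.9% higher. The median log2 difference of the list was -0.23. Clu, a secreted chaperone that can bind both lipoprotein receptors, read 46.28, 151.0 and 109.9 units in E13.5-labelled against 676.5, 1577 and 1394 units in E10.5-labelled arrays (12.5-fold lower, limma adjusted p = 0.00580). Sorl1, a sorting receptor of the same receptor family, was 7.01-fold lower, and Aplp1, a relative of the amyloid precursor protein, 4.50-fold lower (limma adjusted p = 0.00131), with means of 3149 ± 198 units in E13.5-labelled and 14160 ± 534 units in E10.5-labelled arrays (SD, n = 3). Efnb3, an ephrin, was 3.31-fold lower, a call that ended without E13.5-labelled replicate 1 or 3 (limma adjusted p = 0.0587 to 0.0620).

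Downstream of CXCR4, which couples to inhibitory G proteins, 4 of 21 tested genes were higher and 6 lower in E13.5-labelled cells. Over all genes tested 13.9% were higher and 16.2% lower. The median log2 difference of the list was -0.07. Gnai1, an inhibitory G protein alpha subunit, was 4.74-fold lower (limma adjusted p = 0.00120), with means of 2084 ± 148 units in E13.5-labelled and 9861 ± 430 units in E10.5-labelled arrays (SD, n = 3). Its relatives Gnai2 and Gnai3 averaged 6020 and 9243 units in E13.5-labelled against 4292 and 5447 units in E10.5-labelled arrays and did not pass (limma adjusted p = 0.0944 and 0.0567). Gnao1, another alpha subunit, was 3.05-fold lower, Elmo1, a partner of DOCK1 in Rac activation, 2.72-fold and Arrb1, a beta-arrestin, 2.28-fold. Dock1 itself, the Rac exchange factor, was 5.92-fold higher (limma adjusted p = 0.00523), Cd164, a sialomucin that associates with CXCR4, 2.70-fold and Itch, a ubiquitin ligase that acts on CXCR4 in human cells, 1.87-fold. Cdc42, a small GTPase, was 1.57-fold higher. Of these 8 genes, Gnai1, Dock1 and Cd164 passed whichever 1 array was left out, and the other 5 lost their calls in at least 1 such fit (limma adjusted p from 0.0537 to 0.132). Without E13.5-labelled replicate 1, 2 or 3 the list held 5, 4 and 4 passing genes.

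Other chemokines and their receptors were mostly dim: 16 of 31 matched genes never exceeded an array median, and 7 were tested. Of these 3 were lower in E13.5-labelled cells and none was higher (limma; none higher at an unadjusted p under 0.05), beside 16.2% lower over all genes tested. The median log2 difference of the 7 was -0.69. Cx3cl1, a membrane-bound chemokine of neurons, read 57.48, 23.73 and 67.08 units in E13.5-labelled against 213.2, 198.0 and 252.3 units in E10.5-labelled arrays. Cx3cl1 was above the median in E10.5-labelled arrays alone. Its log2 difference of -2.29 became -1.10 with signals raised to the array median, where every E13.5-labelled value was set by that floor. Ccl27a and the atypical receptor gene Ackr1 were 3.80-fold and 2.95-fold lower (limma adjusted p = 0.00649 and 0.00858).

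**Figure D4:**
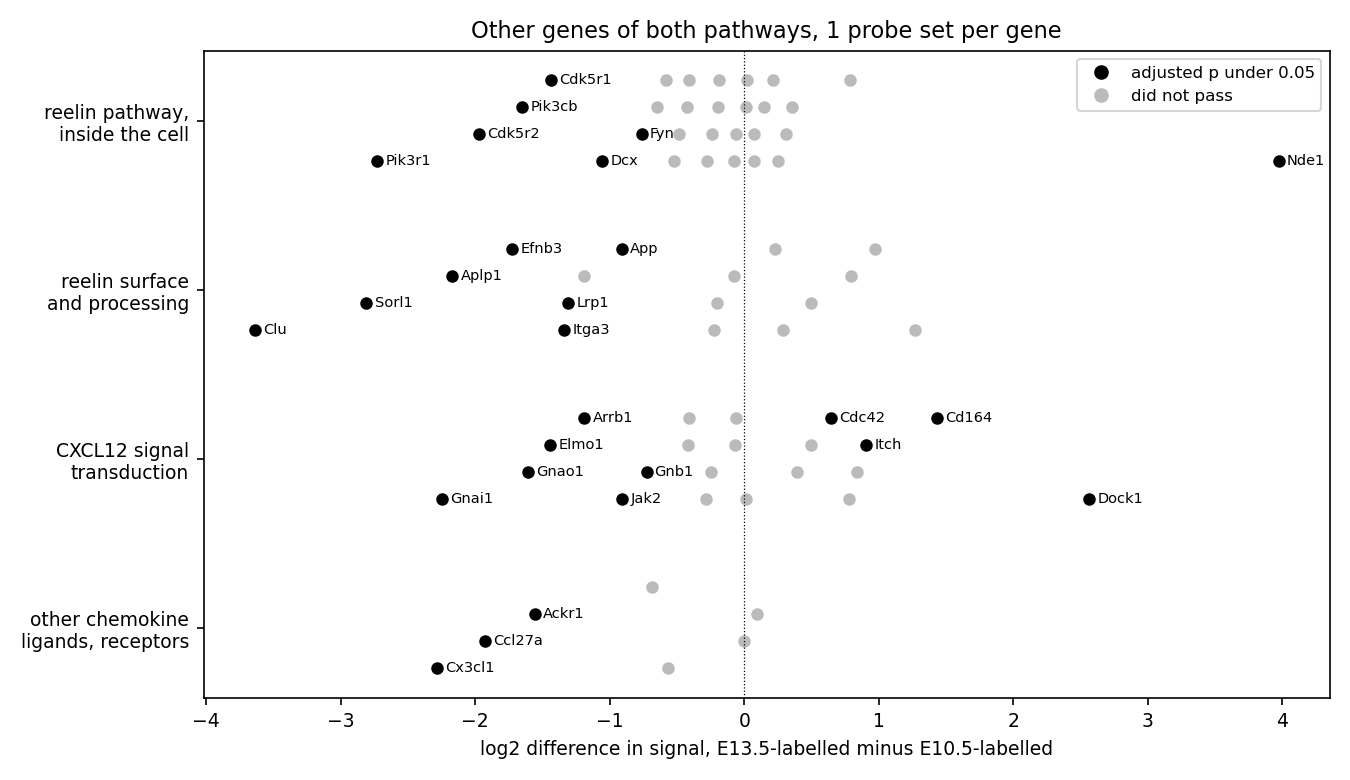
Log2 difference in signal, E13.5-labelled minus E10.5-labelled, of the 74 tested genes in 4 pathway lists, 1 point per gene (height within a row only separates the points). Black points with names passed an adjusted p of 0.05, and 22 of these 27 lie left of 0.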

How the data were processed

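Total RNA of sorted cells was hybridised to 6 Affymetrix 430_2 arrays. The authors deposited linear intensities, and the submitters' processing notes name MAS5. Its version was not stated, nor any pooling of embryos. Trimming 2% at both ends leaves every array with the same mean signal, which shows a common scaling, and a change in RNA content per cell is therefore not visible. MAS5 subtracts mismatch signals, so dim values vary strongly on the log scale. Genes were named from the platform annotation (34958 of 45101 probe sets with 1 symbol). The 64 control probe sets were left out.

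The test was limma 3.58.1 in R 4.3.3 (lmFit and eBayes on log2 signals), E13.5-labelled minus E10.5-labelled, two-sided. It takes a common variance for both groups in each probe set. The median SD of log2 signals was 0.212 in the E13.5-labelled and 0.386 in the E10.5-labelled group, so the spread was unequal. Means are arithmetic with SD, and a fold is the antilog of the log2 difference. The procedure was tested on simulated data. Genes named were all probe sets of the 7 genes, up to 4 of the largest passing differences per direction in each list, and the 3 most similar genes per member. Clone symbols were left out. Src, Fyn, Yes1, Crk, Crkl, Gnai2, Gnai3 and the cell type markers named outside that rule were picked after their values were seen. The members and lists were chosen with earlier results of these data known. Alternatives covered pairing, scaling, offset, floor, filter, variance model, array weights, threshold and arrays left out, each with the tested probe sets kept when arrays were left out. The listed genes without a matching probe set were not analysed here.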

Additional observations from a re-analysis of the deposited data

How the results depend on the processing

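Of 13 passing probe sets of the 7 genes, 8 kept their call in all 17 alternatives and 10 when any 1 array was left out. Over 270 combinations of probe set and alternative, 240 gave the same call, 23 lost one, 5 gained one (all for Ackr3) and 2 changed sign, both for Cxcl12, which never passed: 1417574_at to 0.13 without E13.5-labelled replicate 1 and 1448823_at to -0.011 without E10.5-labelled replicate 2. With 1 array left out these ran from -1.29 to 0.13 and from -0.011 to 0.57. The number of passing probe sets of the 7 genes was 10 to 13 with 1 array left out, and 8 (1 higher, 7 lower) with both arrays numbered 3 left out. Those higher and lower numbered 2 to 4 and 8 to 10 with 1 array left out.

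Counts over the array depended more on the settings. With the replicate number as a block, 3590 probe sets of the array and 15 pathway genes passed, against 6094 and 27, and 11 of the 7 genes' probe sets, with the main Reln probe set and Lrp8 1440882_at lost (limma adjusted p = 0.0680 and 0.0978). The numbers share no stated litter or day. Deviations of same-numbered arrays from their group means correlated at -0.03, -0.07 and -0.01. With 3 arrays in each group these correlations depend on each other, so they cannot decide whether the numbers pair the samples. Without a filter 2719 and 12 passed, at an adjusted p of 0.01 2433 and 12, and with both arrays numbered 3 left out 1481 and 4. With 1 array left out 2937 to 5847 and 14 to 25 passed. Counting a pathway gene if any of its probe sets passed gave 33. Fewer arrays leave fewer degrees of freedom, and the causes of the other changes were not tested. Dim signals limit the fold changes of Ackr3, Reln 1458020_at and Dab1 1427308_at and 1435577_at. With signals raised to the array median 14 probe sets of the 7 genes passed. Among them was Reln 1458020_at, whose E10.5-labelled values were then all set by the floor.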
